A study of Rattus norvegicus with 24 samples.

Results

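Igsf11, Sorcs1, Fnbp1, Spire2, Syde2, Akap6, Phyhipl and Siae are 8 genes followed here in rat neural stem cells and in the cells differentiated from them. These genes serve adhesion, protein sorting, the actin cytoskeleton and kinase anchoring, with Siae for a sialic acid enzyme and Phyhipl for a relative of an enzyme-binding protein. They were chosen by their measured difference from the stem cells, which had the same direction in both replicates, and were matched by symbol in the first column of the expression table. All 8 were found among its 12187 genes, and all 8 were among the 11823 genes tested. In the libraries used here, 5 of them (Igsf11, Fnbp1, Spire2, Syde2 and Phyhipl) were higher in differentiated cells than in stem cells and 3 (Sorcs1, Akap6 and Siae) were lower, in each replicate, without and with vitamin C.

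The cells were of Sprague-Dawley background and came in 3 groups of 2 RNA-seq libraries. D0 is the neural stem cell on day 0, VC- the differentiated cell without vitamin C and VC+ the differentiated cell that received vitamin C. The labels of both differentiated groups mark replicate 1 D4 and replicate 2 D5, read here as day 4 and day 5, so replicate and day cannot be told apart. Vitamin C dose, culture medium and number of animals are not given in the sources used here, and nothing says that the replicates are separate cultures, so the p-values below measure only the spread between these libraries. Expression is given in CPM, the reads of a gene scaled to the size of its library, always with replicate 1 first. In bulk RNA, fewer cells of a type and less RNA per cell cannot be told apart.

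Neural stem cells adhere to their niche, divide and sort growth factor receptors between the surface and internal membranes, and differentiation into neurons and glia rebuilds adhesion, membrane traffic and the actin cytoskeleton. Igsf11 encodes an immunoglobulin superfamily adhesion molecule that binds its own kind on neighbouring cells and is found at synapses. Sorcs1 is a sorting receptor of the VPS10P domain family, which moves receptors and other cargo between endosomes, Golgi and plasma membrane. Fnbp1 bends membranes through its F-BAR domain during endocytosis, Spire2 nucleates actin filaments together with formins, and Syde2 is a regulator of the cytoskeleton with a relative in Syde1. Akap6 anchors protein kinase A at the nuclear envelope, Siae removes acetyl groups from sialic acids, and Phyhipl resembles a protein that binds phytanoyl-CoA hydroxylase.

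The members' promoters are shown first, as a description of the sequence before their start sites. RefSeq (build GRCr8) had a promoter window for 7 of the 8, which runs from 250 bases before the annotated start to 50 after it; Siae was not matched. The 250 bases before the start are printed 5′ to 3′ on the gene's strand for 5 of them: Igsf11 and Syde2, which were higher in VC+ than in VC- without overlap, Sorcs1 and Akap6, which were highest in D0, and Spire2, which had the most GC boxes. They lie at chr11:75373905-75374154 on the minus strand, chr2:237558024-237558273 on the plus strand, chr1:259535487-259535736 on the minus strand, chr6:75919263-75919512 on the plus strand and chr19:68281628-68281877 on the plus strand. Capitals mark 3 kinds of match on either strand. The GC box was searched as GGGCGG. The CCAAT box was searched by those letters. The half-site of nuclear factor I, a factor of glial genes, was searched as TTGGC. Igsf11 has none of them in these bases.
Igsf11: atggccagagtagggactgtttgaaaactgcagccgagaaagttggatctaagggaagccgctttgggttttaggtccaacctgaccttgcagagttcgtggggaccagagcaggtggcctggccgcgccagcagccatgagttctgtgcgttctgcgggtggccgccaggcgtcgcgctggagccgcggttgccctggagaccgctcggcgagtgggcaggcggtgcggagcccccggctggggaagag
Syde2: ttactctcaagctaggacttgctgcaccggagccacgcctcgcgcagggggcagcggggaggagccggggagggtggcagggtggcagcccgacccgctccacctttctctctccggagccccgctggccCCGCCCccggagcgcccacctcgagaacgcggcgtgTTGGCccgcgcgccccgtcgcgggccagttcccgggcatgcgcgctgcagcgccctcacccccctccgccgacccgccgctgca
Sorcs1: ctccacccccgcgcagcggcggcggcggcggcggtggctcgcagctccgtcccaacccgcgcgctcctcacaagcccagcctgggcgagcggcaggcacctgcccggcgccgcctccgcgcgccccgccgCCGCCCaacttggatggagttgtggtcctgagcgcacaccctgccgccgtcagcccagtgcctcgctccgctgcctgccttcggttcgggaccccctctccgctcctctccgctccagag
Akap6: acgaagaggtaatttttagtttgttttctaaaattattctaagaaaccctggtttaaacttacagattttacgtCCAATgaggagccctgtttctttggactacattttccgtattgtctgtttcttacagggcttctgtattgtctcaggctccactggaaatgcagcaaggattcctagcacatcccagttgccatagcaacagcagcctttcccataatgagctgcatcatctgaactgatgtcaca
Spire2: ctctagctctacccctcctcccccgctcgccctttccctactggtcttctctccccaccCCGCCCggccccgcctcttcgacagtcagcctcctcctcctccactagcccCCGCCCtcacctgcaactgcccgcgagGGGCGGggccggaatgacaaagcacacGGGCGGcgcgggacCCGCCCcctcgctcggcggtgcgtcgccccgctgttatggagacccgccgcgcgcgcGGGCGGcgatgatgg

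The 7 windows were mostly rich in CpG, with a median of 35 CpG dinucleotides against 21 over the 9212 windows of genes in the expression table. Phyhipl had 44, Sorcs1 41, Spire2 40, Syde2 35, Fnbp1 31 and Igsf11 25, whereas Akap6 had 3, fewer than most windows (3.61% had fewer still). A GC box stood in 5 of 7 windows, against 62.0% of all windows, and Spire2 had 9 of them, some after the start. Nuclear factor I half-sites stood in 4 of 7 windows, against 49.7% of all: at -84 and 8 from the start in Syde2, at -147 in Fnbp1, at -212 in Phyhipl and at 11 in Sorcs1. A CCAAT box was found in 1 of 7 (Akap6, at -176) and in 37.1% of all windows, and an E-box (CANNTG) in 4 of 7 and in 62.7%. The TATA box, searched as TATAAA, was in none of the 7 windows and in 6.71% of all. The core of the hypoxia response element, searched as ACGTG, was in none of the 7 and in 25.1% of all. The E-box form CACGTG, which overlaps that core and the general E-box, was in none of the 7 and in 9.00% of all. Motifs were searched on both strands, GC boxes may overlap each other, and a match or its absence says nothing of a factor binding. By member, Igsf11, Spire2, Sorcs1 and Akap6 held an E-box, and no motif searched was in every window of the higher members.

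Markers of some other cell types set the replicates apart. Markers of microglia and macrophages (12 of 12 in the table) summed to 4.59 to 5.23 CPM in replicate 1, where 3 to 8 of them were at 0, and to 314 to 809 CPM in replicate 2. Fibroblast, pericyte and meninges markers (8 of 11) summed to 232 to 859 CPM in replicate 1 and 4202 to 10447 CPM in replicate 2. Neural stem cell markers (9 of 10) summed to 4106 and 5545 CPM in D0, 4117 and 4670 CPM in VC- and 3275 and 5069 CPM in VC+, and neuron markers (12 of 12) to 545 and 575, 695 and 504, and 551 and 494 CPM, so by these lists the libraries labelled differentiated, which the series' design calls neuron cells, were not set apart from D0. Astrocyte markers (10 of 10) summed to 1371 and 2345 CPM in D0, 1716 and 2486 CPM in VC- and 5419 and 6852 CPM in VC+, and proliferation markers (10 of 10) to 972 and 740, 497 and 369, and 498 and 483 CPM. Oligodendrocyte precursor markers (7 of 8) summed to 2245 and 980, 3651 and 822, and 3098 and 642 CPM.

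Igsf11 was the most even of the members. It stood at 14.8 and 17.0 CPM in D0, at 72.7 and 70.9 CPM in VC- and at 106 and 99.5 CPM in VC+. The 3 groups did not overlap, and the order D0, VC-, VC+ was the same in both replicates. On the log2(CPM + 0.5) scale the difference from D0 was 2.15 in VC- and 2.66 in VC+ (SE 0.20 for each, n = 2 libraries per group), or 4.43-fold and 6.31-fold.

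Sorcs1, the sorting receptor, had the greatest difference of the 8 in both comparisons with D0. It went from 149 and 245 CPM in D0 to 26.3 and 27.1 CPM in VC- and 22.4 and 23.8 CPM in VC+. The stem cell libraries differed from each other by 0.71 in log2, while the replicates differed by 0.043 in VC- and 0.088 in VC+. The differences from D0 were -2.82 and -3.02 (SE 0.29), that is 7.05-fold and 8.12-fold lower.

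Among the cytoskeletal members, Fnbp1 stood at 33.9 and 39.4 CPM in D0, at 90.0 and 75.6 CPM in VC- and at 82.5 and 83.6 CPM in VC+. Both differentiated groups lay above D0, and their own ranges overlapped. The differences from D0 were 1.16 and 1.17 (SE 0.21), the lowest among the higher members. Spire2 was a weakly expressed member, at 4.29 and 4.34 CPM in D0, 25.5 and 15.6 CPM in VC- and 12.7 and 21.6 CPM in VC+. Its replicates were near each other in D0 and apart in the differentiated cells, in opposite order without and with vitamin C. The differences from D0 were 2.09 and 1.83 (SE 0.43). Syde2 stood at 10.6 and 10.8 CPM in D0, at 29.2 and 29.5 CPM in VC- and at 45.0 and 36.9 CPM in VC+, with no overlap between the groups. Its differences from D0 were 1.41 and 1.88 (SE 0.24).

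Akap6, the kinase anchor, went the other way, from 58.1 and 53.0 CPM in D0 to 21.3 and 21.2 CPM in VC- and 16.6 and 20.3 CPM in VC+. The order D0, VC-, VC+ ran downwards without overlap, and the differences from D0 were -1.37 and -1.57 (SE 0.24). Siae, the sialic acid esterase, stood at 78.6 and 57.5 CPM in D0, 20.2 and 25.6 CPM in VC- and 25.9 and 25.8 CPM in VC+. Both differentiated groups lay below D0, and the differences were -1.54 and -1.36 (SE 0.27). Phyhipl stood at 19.0 and 18.7 CPM in D0, at 161 and 59.0 CPM in VC- and at 126 and 77.8 CPM in VC+. All 4 differentiated libraries lay above D0, with replicate 1 above replicate 2 in both groups, and the differences were 2.34 and 2.36 (SE 0.53). The difference in VC- was 1.62 without VC- replicate 1 and 3.07 without VC- replicate 2. RefSeq lists Fam13c as overlapping Phyhipl, and without a known strand setting the reads of the pair cannot be told apart.

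**Figure D1:**
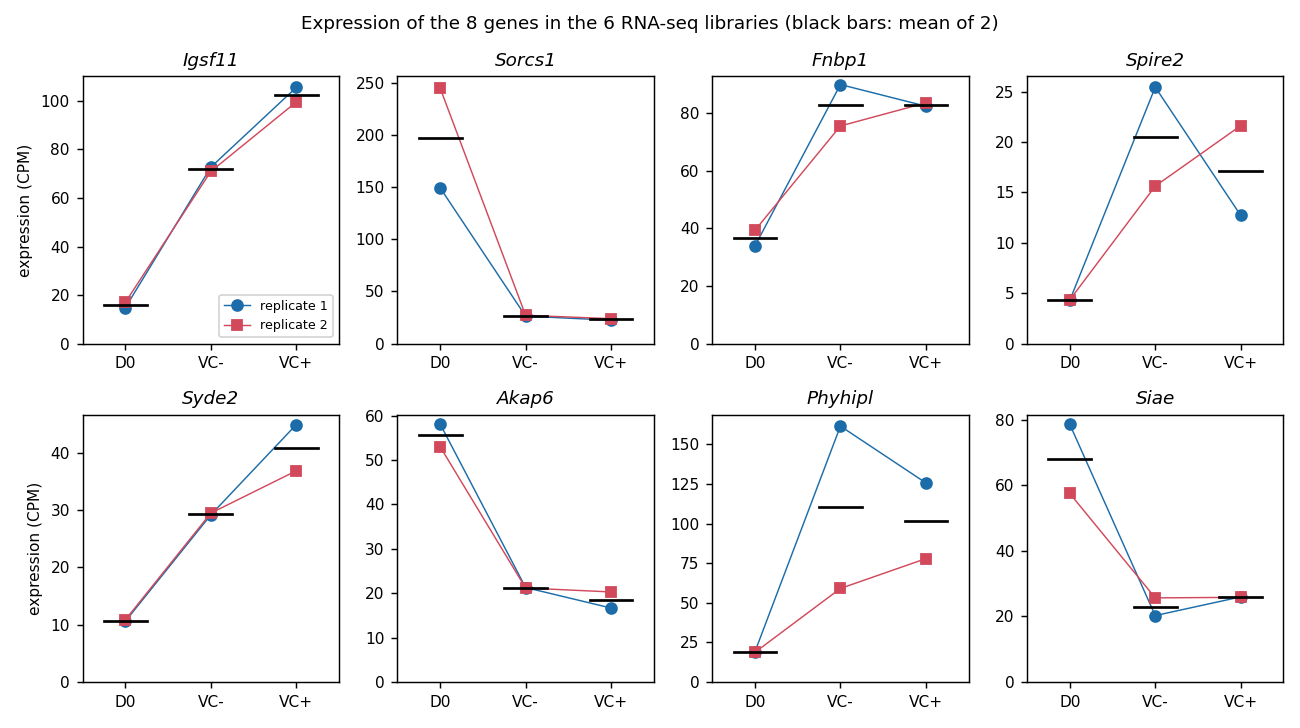
Expression in CPM (y axis, from 0) of each member in D0, VC- and VC+ (x axis); blue circles are replicate 1, red squares replicate 2, black bars the mean of 2, and lines join libraries of the same number. Igsf11 climbs from 15.9 to 71.8 and 103 CPM on average with its replicates close together, while Phyhipl reaches 161 CPM in replicate 1 and 59.0 CPM in replicate 2 of VC-.

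The differences from D0 chose the members and so are given without a test. The stated rule set no size as a limit, and the lowest difference in any replicate was 0.93 in log2 (Fnbp1 in VC-, replicate 2). Ordered by limma p among all genes tested, however, the members ranked 1 to 35 for VC- against D0 and 2 to 90 for VC+. They thus stand near the top of that order, and these ranks describe the choice and test nothing. Of all genes tested, 39.9% moved one way from D0 in both replicates, without and with vitamin C: 19.4% were higher and 20.5% lower. The 2 comparisons with D0 share the stem cell libraries, so a D0 library that stands apart moves both. The spread between replicates, pooled over the groups, was 0.087 in log2 for Igsf11, 0.12 for Syde2, 0.13 for Akap6 and Fnbp1, 0.23 for Siae, 0.29 for Sorcs1, 0.41 for Spire2 and 0.65 for Phyhipl, beside a median of 0.43 over all genes tested. Since agreement between replicates was part of how the members were chosen, a spread below that median is no finding. Phyhipl alone lay above it.

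**Figure D2:**
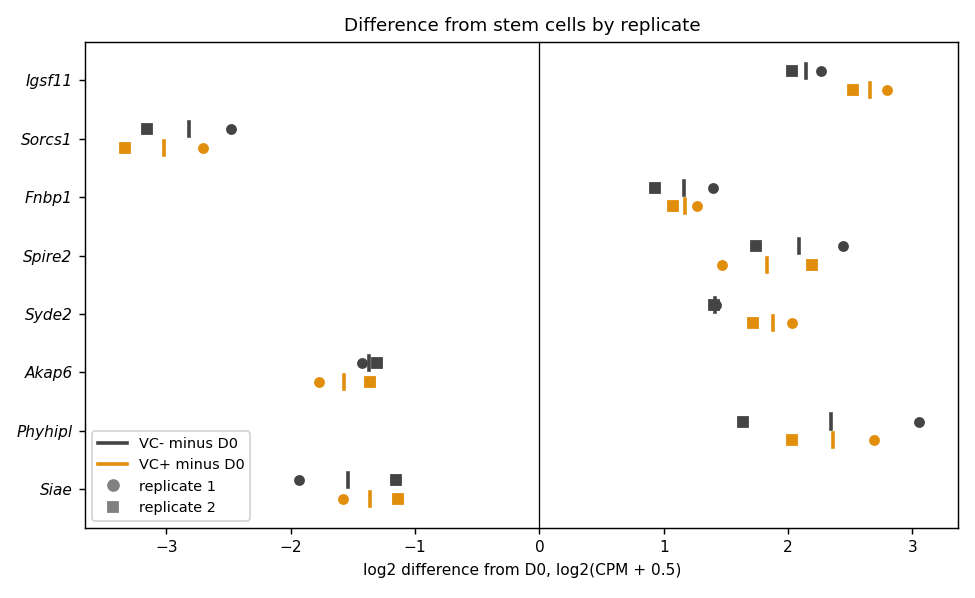
Log2 difference from D0 (x axis, on log2(CPM + 0.5)) of the members (y axis) in VC- (grey) and VC+ (orange); circles are replicate 1, squares replicate 2 and bars the mean. In each member all 4 points lie on the same side of 0, from -3.33 for Sorcs1 to 3.05 for Phyhipl.

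Vitamin C was the comparison that the choice of members did not use directly, and the question was whether the listed genes differ between VC+ and VC-. Igsf11 and Syde2 had the greatest positive differences, Igsf11 by 0.51 (SE 0.20, 0.54 in replicate 1 and 0.49 in replicate 2) and Syde2 by 0.47 (SE 0.24, 0.62 and 0.32). Siae was also higher with vitamin C in both replicates, by 0.35 and 0.0094. Sorcs1 (-0.23 and -0.18) and Akap6 (-0.34 and -0.061) were lower in both. Fnbp1 (-0.12 and 0.14), Spire2 (-0.97 and 0.46) and Phyhipl (-0.36 and 0.40) had opposite signs in the replicates. In Igsf11, Syde2, Sorcs1 and Akap6 the sign was that of the difference of VC- from D0; VC- enters both differences with opposite sign.

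None of the 8 passed the test. In limma over all 11823 genes the smallest unadjusted p among them was 0.0503, for Igsf11, and every adjusted p was 1.00; limma called 0% of all genes for vitamin C (0 of 11823, with 62 at an unadjusted p under 0.05), and DESeq2 on recovered reads called 0.0507% (6 genes), none of them a member. With the replicate number as a block the unadjusted p of Igsf11 was 0.0265 in limma and its adjusted p 1.00. An exact permutation test of 2 libraries against 2 cannot go below a two-sided p of 0.333, so none was run. The groups with and without vitamin C did not overlap for 5 of 8 members, against 16.0% of all genes. Among these 5, the gap was small in Siae (25.6 CPM in VC- and 25.8 CPM in VC+, replicate 2). It was also small in Akap6 (21.2 CPM in VC- and 20.3 CPM in VC+, replicate 2). Agreement between replicates was part of the choice of members, so the count of 5 and the p-values above are limited as a test. Higher in both replicates were 3 of 8, against 30.0% of all genes, and lower in both 2 of 8, against 26.4%.

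The 95% intervals show what these libraries can say about vitamin C. For Igsf11 the interval of the log2 difference ran from -0.00097 to 1.02 and for Syde2 from -0.16 to 1.09. For Fnbp1 it ran from -0.53 to 0.55, for Akap6 from -0.81 to 0.40, for Siae from -0.51 to 0.87 and for Sorcs1 from -0.96 to 0.55. The widest intervals were those of Spire2 (-1.37 to 0.85) and Phyhipl (-1.35 to 1.39), the members whose replicates were farthest apart. These intervals come from the fit without the replicate block; with the block, where VC- and VC+ libraries of a number are paired, the limma estimate for Igsf11 was the same 0.51 with an unadjusted p of 0.0265, so that its 95% interval would not include 0. The unadjusted p of the other 7 was 0.0641 or more in that fit.

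**Figure D3:**
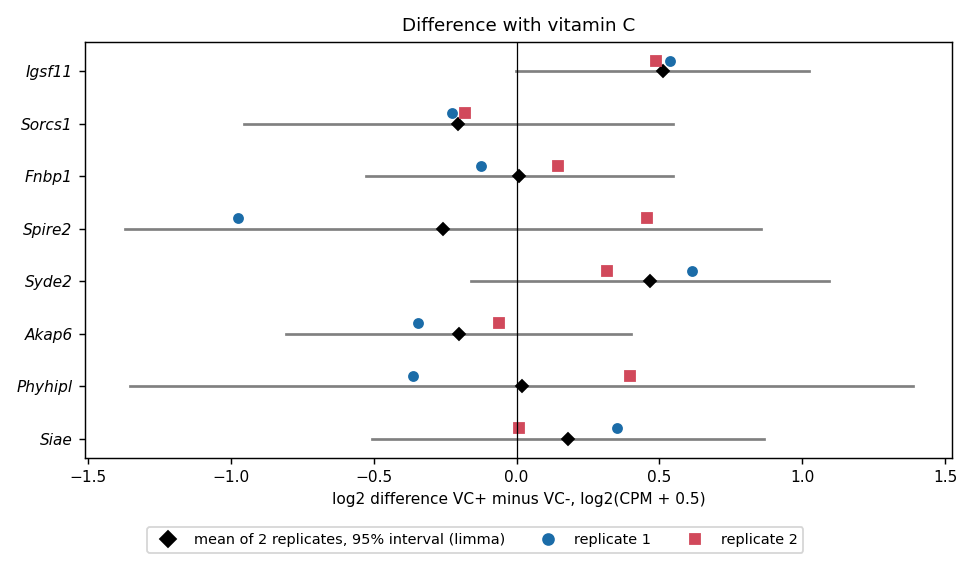
Log2 difference VC+ minus VC- (x axis, on log2(CPM + 0.5)) of the members (y axis); diamonds are the mean of 2 replicates with the 95% interval of the limma fit, circles replicate 1 and squares replicate 2. All 8 intervals, from the fit without the replicate block, include 0, and that of Igsf11 begins at -0.00097; with the block it would not include 0 (unadjusted p 0.0265 in limma).

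Relatives of 4 members were measured too, and their mean differences from D0 were nearer to 0 than those of the member. Syde1 stood at 27.6 and 25.2 CPM in D0, 21.7 and 30.2 CPM in VC- and 22.7 and 28.6 CPM in VC+, with differences from D0 of -0.042 and -0.050 (SE 0.29). Fnbp1l, a close F-BAR relative of Fnbp1, stood at 59.3 and 54.6, 60.5 and 48.4, and 62.3 and 43.9 CPM, with differences of -0.073 and -0.12 (SE 0.27). Spire1 stood at 34.8 and 42.0 CPM in D0, 42.4 and 47.0 CPM in VC- and 66.7 and 60.6 CPM in VC+, with differences of 0.22 and 0.73 (SE 0.22) that had the same sign as those of Spire2. These relatives did not pass the limma test in either comparison with D0, but limma called 0 of 11823 genes in each. Not passing therefore does not set them apart from the members or show that they were unchanged. The difference between a member and its relative was not tested, since the member's part of it was chosen.

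Sorcs2 and Sorcs3, relatives of Sorcs1, differed between replicates. Sorcs2 stood at 45.3 and 201 CPM in D0, 46.3 and 68.0 CPM in VC- and 51.9 and 55.5 CPM in VC+, so only replicate 2 was lower than its D0 library. Sorcs3 stood at 5.04 and 24.2 CPM in D0, 5.70 and 15.3 CPM in VC- and 4.02 and 10.6 CPM in VC+. Sorl1, a larger receptor of the same family, stood at 2.52 and 17.4 CPM in D0, 7.56 and 19.1 CPM in VC- and 48.1 and 29.0 CPM in VC+.

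**Figure D4:**
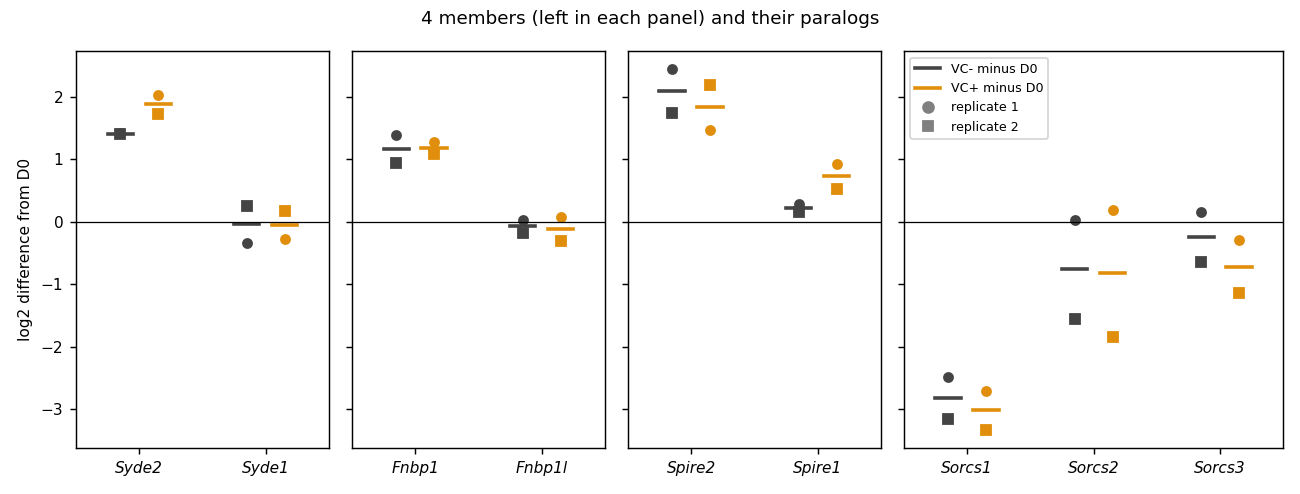
Log2 difference from D0 (y axis, on log2(CPM + 0.5)) of 4 members and of their relatives (x axis), in VC- (grey) and VC+ (orange); circles are replicate 1, squares replicate 2 and bars the mean. Syde1 and Fnbp1l lie near 0 with means of -0.12 to -0.042, beside means of 1.16 to 1.88 for Syde2 and Fnbp1.

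The wider families, 164 genes in 8 lists without the members, held 142 genes that could be tested. Limma called none of them in any of the 3 comparisons, as it called 0% of all genes against D0 as well (382 of 11823 at an unadjusted p under 0.05 for VC- and 507 for VC+). At an unadjusted p under 0.05 there were 6 of 142 for VC- against D0, 6 for VC+ against D0 and 1 for vitamin C. DESeq2 called 0.601% of all genes for VC- and 1.16% for VC+, and 1 of the 142 in each comparison, Ntm. Ntm, a cell adhesion gene of the neurotrimin group, stood at 66.1 and 45.5 CPM in D0, 20.6 and 13.4 CPM in VC- and 22.0 and 15.6 CPM in VC+ (DESeq2 adjusted p 0.0235 and 0.0307).

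The counts of list genes higher or lower in both replicates are read beside the same share of all 11823 genes. For VC- against D0, 28.6% of all genes were higher in both and 29.5% lower, and for VC+ against D0 28.6% were higher and 29.0% lower. In the adhesion list the median difference from D0 was 0.19 for VC- and 0.30 for VC+ over 26 genes, beside 0.0078 and 0.013 over all genes tested, with 4 higher and 7 lower in both replicates for VC-, and 6 and 7 for VC+. Its most abundant members were Nfasc, at 60.9 and 164 CPM in D0, 796 and 140 CPM in VC- and 1817 and 190 CPM in VC+, and Cadm4, at 167 and 301, 579 and 136, and 456 and 154 CPM. Both were far apart between replicates. Igsf11 was not, but agreement between replicates was part of how it was chosen. Sorting genes (16 genes) had medians of 0.12 and 0.17, with 9 higher and 1 lower in both replicates for VC- and 8 and 3 for VC+. The share higher was thus above that of all genes, and the share lower below it, in both comparisons; no test was made of the list. Sort1, the most abundant, stood at 156 and 362 CPM in D0, 174 and 194 CPM in VC- and 139 and 219 CPM in VC+, and Vps35, a retromer subunit, at 123 and 88.2, 117 and 108, and 121 and 130 CPM.

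Actin nucleators (20 genes) had medians of 0.18 and 0.058, with 14 higher and 5 lower for VC- and 8 and 6 for VC+. The 14 of 20 are 70.0% of the list, against 28.6% of all genes, and the 8 of 20 for VC+ are 40.0%; no test was made of the list. Actr3 and Arpc2, subunits of the branching actin nucleator, were near their D0 level: Actr3 at 154 and 130 CPM in D0, 170 and 150 CPM in VC- and 139 and 157 CPM in VC+, Arpc2 at 122 and 119, 141 and 146, and 142 and 138 CPM. F-BAR genes (17) had medians of 0.015 and 0.070, with 4 higher and 3 lower for VC- and 4 and 1 for VC+, both shares below those of all genes. Of these, Fchsd2 stood at 73.0 and 39.5, 144 and 54.2, and 121 and 71.4 CPM and Gas7 at 72.0 and 82.8, 53.2 and 96.1, and 76.3 and 98.5 CPM.

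Anchoring and protein kinase A genes (17) had medians of -0.0061 and 0.12, with 3 higher and 5 lower for VC- and 5 and 4 for VC+. For VC+ the share higher was near that of all genes. Akap8l stood at 259 and 212 CPM in D0, 159 and 360 CPM in VC- and 238 and 413 CPM in VC+, and Prkar1a, a regulatory subunit, at 177 and 154, 232 and 185, and 196 and 176 CPM. Sialic acid genes (26) had medians of -0.021 and 0.18, with 7 higher and 5 lower for VC- and 7 and 3 for VC+, the shares higher again near that of all genes. The sialyltransferases St3gal2, at 31.5 and 51.6, 29.9 and 62.2, and 24.7 and 109 CPM, and St3gal5, at 21.8 and 61.2, 28.7 and 73.9, and 25.7 and 81.8 CPM, differed between replicates more than between groups. Of the Phyhipl list, Phyh stood at 32.4 and 26.3 CPM in D0, 25.8 and 39.4 CPM in VC- and 33.2 and 71.8 CPM in VC+, and Hacl1 at 34.1 and 24.4, 25.8 and 25.4, and 34.4 and 32.4 CPM. Of the 24 list medians (8 lists, 3 comparisons), 20 changed sign under some alternative processing, so no direction is read from them. For vitamin C the medians of the 7 larger lists ran from -0.12 to 0.22, beside 0.018 over all genes.

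Mature oligodendrocyte markers (11 of 12) were higher in replicate 1 than in replicate 2 of both differentiated groups, as Phyhipl was. They summed to 324 and 133 CPM in D0, 9998 and 602 CPM in VC- and 7179 and 471 CPM in VC+, with Mbp, a myelin protein gene, at 47.3 and 5.85, 5346 and 221, and 3212 and 127 CPM. Between the replicate 2 libraries the sum was higher in VC- (602 CPM) and Phyhipl was higher in VC+ (77.8 against 59.0 CPM). In D0, Phyhipl was at 19.0 and 18.7 CPM beside marker sums of 324 and 133 CPM. Igsf11 and Syde2 were nearly equal in the 2 VC- libraries, where these sums were 9998 and 602 CPM. Agreement between replicates was part of how the members were chosen. The part of any cell type in the members' differences was not tested.

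**Figure D5:**
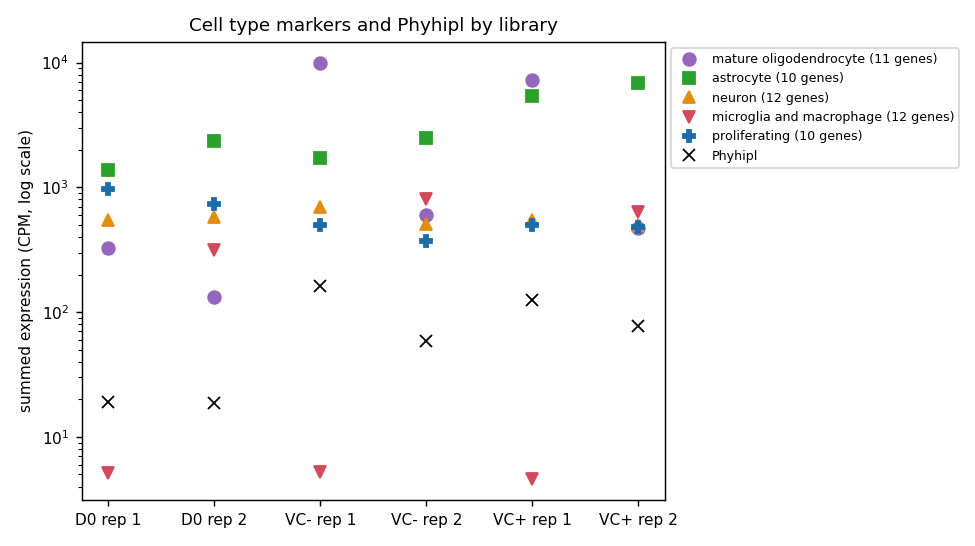
Summed expression of marker lists and expression of Phyhipl (y axis, CPM on a log scale) in the 6 libraries (x axis). The oligodendrocyte sum is 9998 CPM in replicate 1 and 602 CPM in replicate 2 of VC-, where Phyhipl is at 161 and 59.0 CPM; microglial markers are at 5.23 CPM or less in every replicate 1 library.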

How the data were processed

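RNA-seq of 6 libraries (2 per group) was used; the other 18 samples of the series were not analysed here. The authors deposited CPM values for each gene, per the labels, with replicates kept apart. The submitters' processing notes name STAR 2.5.1, edgeR 3.12.1 and the rn5 build among tools for several assays; read counter, annotation, strand setting and gene filter are not given in the sources used here. Dividing each library by the CPM of 1 read gave whole numbers throughout (100% within a relative tolerance of 1e-06), so reads were recovered: 4811094 to 13184601 per library (replicate 2 deeper in each group), or 60.2% to 67.7% of the total behind the CPM. Member values rest on 34 (Spire2) to 3725 (Sorcs1) reads.

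Genes reaching 1 CPM in 2 or more libraries entered limma 3.58.1 (trend, two-sided, R 4.3.3) on log2(CPM + 0.5), fitting the 3 groups jointly (3 residual degrees of freedom), with Benjamini-Hochberg adjustment over all 11823 genes. Recovered reads were tested with edgeR 4.0.16 (quasi-likelihood) and DESeq2 1.42.0 as alternatives; others were pseudocounts of 0.1 and 2, no filter or 5 CPM, median-of-ratios scaling, a replicate block, no trend and leaving out each library. The code was tested on simulated counts, which held no replicate or day effect. A minimum of recovered genes was not required of the main limma fit there. How many true changes that fit can find in these libraries is therefore not known from the simulation. VC- and VC+ libraries of a number share a day label, and their deviations from the group mean correlated at 0.914 across genes, so the block pairs that comparison. The members and lists were chosen with earlier results of these data known. Genes named are the members, up to 2 other genes of highest mean CPM per list, close relatives, list genes called by a test, and the 2 genes of most similar pattern per member; outside this rule, 1 marker gene (Mbp), the neighbours Lsamp and Spa17 and the overlapping Fam13c are named, chosen after their values or positions were seen. The values of 1 of the 8 family lists are not reported here on their own.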

Additional observations from a re-analysis of the deposited data

Results flagged for a closer look

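In 3 members the difference between VC+ and VC- had opposite signs on day 4 (replicate 1) and day 5 (replicate 2). With 1 library of each kind per day the change between days was not tested, and day and replicate cannot be told apart. For Spire2 the log2 difference was -0.97 on day 4 and 0.46 on day 5, a change of 1.43. For Phyhipl it was -0.36 and 0.40, a change of 0.76, and for Fnbp1 -0.12 and 0.14, a change of 0.27. Spire2 rested on 219 and 133 reads on day 4 and on 291 and 462 reads on day 5.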

How the results depend on the processing

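Over 16 alternatives, none of the 16 member differences from D0 changed sign. The members were chosen for the same direction in both replicates, and D0 overlapped neither differentiated group in 8 of 8. The lack of a sign change was thus largely fixed by the choice and is no support. Phyhipl moved most: its difference of VC- from D0 was 1.62 without VC- replicate 1 and 3.07 without VC- replicate 2. For vitamin C, none of the 8 members passed under any alternative (adjusted p 1.00 in each fit, limma, edgeR and DESeq2), and the replicate block left all log2 differences of limma as they were (0.51 for Igsf11, unadjusted p 0.0265). The sign changed for Fnbp1 in edgeR (-0.0051, and -0.0049 with the replicate block) and with a library left out (-0.12 to 0.13), for Spire2 with a library left out (-0.63 to 0.11), and for Phyhipl in edgeR (-0.12, and -0.033 with the replicate block), in DESeq2 (-0.12) and with a library left out (-0.70 to 0.74). Over all genes, calls went from 0 to 6 (vitamin C), 71 (VC- against D0) and 137 (VC+ against D0) in DESeq2 and to 11 (VC+ against D0) in edgeR with the replicate block; the cause was not tested. For comparisons with D0 the libraries share only a number (correlations of deviations 0.730 and 0.688). Of 24 family medians, 20 changed sign under some alternative. Overlapping RefSeq genes could share reads, since the strand setting is not known. They are Fam13c for Phyhipl, a pseudogene for Igsf11, an snRNA for Fnbp1 and lncRNAs for Sorcs1. The fewest reads behind any member value were those of Spire2 in D0 replicate 1 (34 reads), and the part of depth in its spread was not tested.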

Other observations

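For each member the 2 genes of most similar pattern are given, by the root mean square difference between log2(CPM + 0.5) profiles over the 6 libraries, each centred on its own mean. They were picked out of 11823 genes for their likeness, which is therefore a description. Nearest to Siae were Prkcb, a protein kinase C gene (0.15), at 80.3 and 56.4 CPM in D0, 22.7 and 32.2 CPM in VC- and 23.3 and 26.5 CPM in VC+, and Notch2, a Notch receptor (0.18), at 436 and 411, 153 and 211, and 173 and 164 CPM. Nearest to Akap6 were Kif23, a kinesin of cell division (0.14), at 55.2 and 46.4, 21.9 and 18.5, and 18.3 and 22.3 CPM, and Arl4c, a small GTPase (0.18), at 63.6 and 62.9, 29.1 and 32.8, and 20.5 and 30.2 CPM. Nearest to Spire2 were Epb41l4b (0.27) and RGD1359634 (0.37), and the latter stood at 32.0 and 25.2, 90.1 and 62.6, and 43.2 and 80.3 CPM, with the same exchange of replicates between VC- and VC+.

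Nearest to Igsf11 were Mgll (0.22) and Apba1 (0.35), to Syde2 Dennd1c (0.15) and Sdr42e1 (0.16), to Fnbp1 Grm6 (0.080) and Nfil3 (0.10), to Phyhipl Stk32a (0.29) and Chst5 (0.31), and to Sorcs1 Nmur2 (0.19) and Scn11a (0.25). Several of these were near the limit of detection in some libraries: Grm6 reached 1.40 CPM at most, and Scn11a was at 3.03 and 4.01 CPM in D0 and at 0 in replicate 1 of VC- and VC+. The pseudocount shrinks the differences of such genes, so their likeness rests on few reads.

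Among the genes next to the members in the RefSeq gene table, 2 are given here, chosen after their values were seen. Lsamp, next to Igsf11 and also an adhesion gene, stood at 9.33 and 27.3 CPM in D0, 49.5 and 14.8 CPM in VC- and 82.1 and 12.6 CPM in VC+, higher than D0 in replicate 1 and lower in replicate 2. Spa17, next to Siae, stood at 11.5 and 8.48, 4.88 and 26.0, and 6.60 and 55.2 CPM, lower than D0 in replicate 1 and higher in replicate 2.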
